A study of Mus musculus with 3 samples.

Results

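The thermogenic and brown fat genes described here were Ucp1, Ucp2, Ucp3, Ppargc1a, Ppargc1b, Prdm16, Cidea and Dio2. They were taken by name, and every probe set whose platform annotation named that gene alone was used. Of the 8 genes, 7 were measured, by 17 probe sets, among 18194 genes measured in all. Ucp2 was not analysed here. RNA came from 3T3-L1 adipocytes, a cultured model of the fat cell obtained by differentiating a line of mouse fibroblasts, after incubation with glucose oxidase for 2 h. This enzyme makes hydrogen peroxide as it oxidises glucose, and the labels call the cells insulin resistant. The 3 samples, named replicates 1 to 3, formed 1 group and were hybridised to the mouse4302 Affymetrix array. Control arrays were not analysed here, so each value is a level in cells given glucose oxidase and not a response to it.

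Separate cultures are not stated for the samples, and the SDs may therefore hold technical variation only. Preadipocytes are named in the tissue label, but the cells are adipocytes by the growth protocol and the methods. Of the adipocyte markers measured, 10 of 11 were above background, with adiponectin (Adipoq) at 14.49 ± 0.031 (log2 intensity, mean ± SD, n = 3), and leptin (Lep) was the exception at 5.79 ± 0.045. Of the preadipocyte and fibroblast markers, 9 of 12 were also above background, including Dlk1, an inhibitor of adipocyte differentiation, at 13.24 ± 0.10. Endothelial markers were above background for 1 of 6 genes, neuronal markers for 1 of 6, skeletal muscle markers for 2 of 10 and macrophage markers for 4 of 10. The share of all genes measured was 54.5%. The arrays had median intensities of 126.9 to 127.6, and Pearson's r between arrays across probe sets above background was 0.997 to 0.998. Genes are not independent replicates, so this r describes the arrays only.

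Brown and beige fat cells burn fuel to make heat. UCP1 lets protons re-enter the mitochondrial matrix without making ATP, and noradrenaline switches the system on through β-adrenergic receptors, cyclic AMP and the transcription factor CREB. Among the genes that cyclic AMP induces in brown fat are Ucp1, Ppargc1a and Dio2. PGC-1α and PGC-1β, the products of Ppargc1a and Ppargc1b, are coactivators that drive the making of mitochondria, and PRDM16 directs cells to the brown fat fate. White fat cells, which 3T3-L1 adipocytes are usually taken to model, store lipid and make little UCP1.

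The promoters of the 3 genes that cyclic AMP induces are shown first, because a response element to that signal was searched for in them. They are the 250 bases before the transcription start in RefSeq, assembly GRCm38.p6, written 5′ to 3′ on the strand of the gene. The capitals mark the cyclic AMP response element (CRE) searched for, either the half-site TGACG or its reverse complement CGTCA, or the full site TGACGTCA, which holds both. Ucp1 lies at chr8:83290098-83290347 on the plus strand, Ppargc1a at chr5:51567726-51567975 on the minus strand and Dio2 at chr12:90739039-90739288 on the minus strand.
Ucp1: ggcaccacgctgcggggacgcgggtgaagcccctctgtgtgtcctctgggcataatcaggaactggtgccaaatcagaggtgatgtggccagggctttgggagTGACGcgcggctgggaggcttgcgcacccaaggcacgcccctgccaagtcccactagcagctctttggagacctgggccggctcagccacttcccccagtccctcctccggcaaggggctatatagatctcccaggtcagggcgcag
Ppargc1a: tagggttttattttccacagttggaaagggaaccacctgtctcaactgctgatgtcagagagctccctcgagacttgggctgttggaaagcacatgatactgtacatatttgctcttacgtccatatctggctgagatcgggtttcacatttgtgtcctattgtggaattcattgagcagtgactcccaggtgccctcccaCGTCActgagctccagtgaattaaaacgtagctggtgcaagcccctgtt
Dio2: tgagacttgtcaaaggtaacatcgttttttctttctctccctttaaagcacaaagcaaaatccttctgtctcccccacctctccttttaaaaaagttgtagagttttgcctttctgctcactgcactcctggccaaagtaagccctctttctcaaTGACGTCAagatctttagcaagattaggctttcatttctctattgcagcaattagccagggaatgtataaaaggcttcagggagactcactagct

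Each of these promoters held a CRE half-site. In Ucp1 it lay 147 to 143 bases before the start, and in Ppargc1a 49 to 45 bases before it. In Dio2 the full site lay 95 to 88 bases before the start, with a TATA box (TATAAA, searched on the gene strand) 30 to 25 bases before it. Of 32851 promoters of the same length, 17.8% held the half-site, 1.55% the full site and 7.59% the TATA box. A match is a run of letters and not evidence that a factor was bound in these cells.

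The promoter of Ucp3 held no CRE half-site and had the nuclear receptor half-site AGGTCA at 2 places, 149 to 144 and 44 to 39 bases before the start. Ucp1 had the same letters 14 to 9 bases before its start. This half-site was searched on both strands and was present in 14.0% of promoters. The promoter of Prdm16 held none of these motifs, and differed in its count of CpG dinucleotides, with 22, against 12 in Ucp1, 5 in Ppargc1a, 3 in Ucp3 and 2 in Dio2. The median over all promoters was 6. Of the measured genes, 5 matched the RefSeq promoter table and Ppargc1b and Cidea are named only.

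A probe set was called above background when it exceeded 7.57 on the log2 scale, an intensity of 190, in all 3 arrays. The limit was set by 86 probe sets of smell, vomeronasal and taste receptors, taken as genes that fat cells do not use, whose means spanned 2.86 to 8.45, and it is their 95th percentile. A gene was above background when any of its probe sets was, and its probe set with the highest mean stood for it. Probe sets bind with different efficiency, so their levels were set against this background and not against each other. By this rule 3 of 7 thermogenic genes were above background (42.9%), namely Ppargc1a, Ppargc1b and Ucp3, beside 54.5% of all genes measured. Of the 17 probe sets, 4 were above background in all arrays (23.5%), 2 in some arrays and 11 in none, beside 45.3% of all probe sets of 1 gene above it in all arrays. Ucp1, Cidea, Dio2 and Prdm16, the members that most narrowly mark brown fat cells, had no probe set above background in any array. For those genes only an upper bound of expression was measured, and low transcript was not distinguishable from none.

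**Figure D1:**
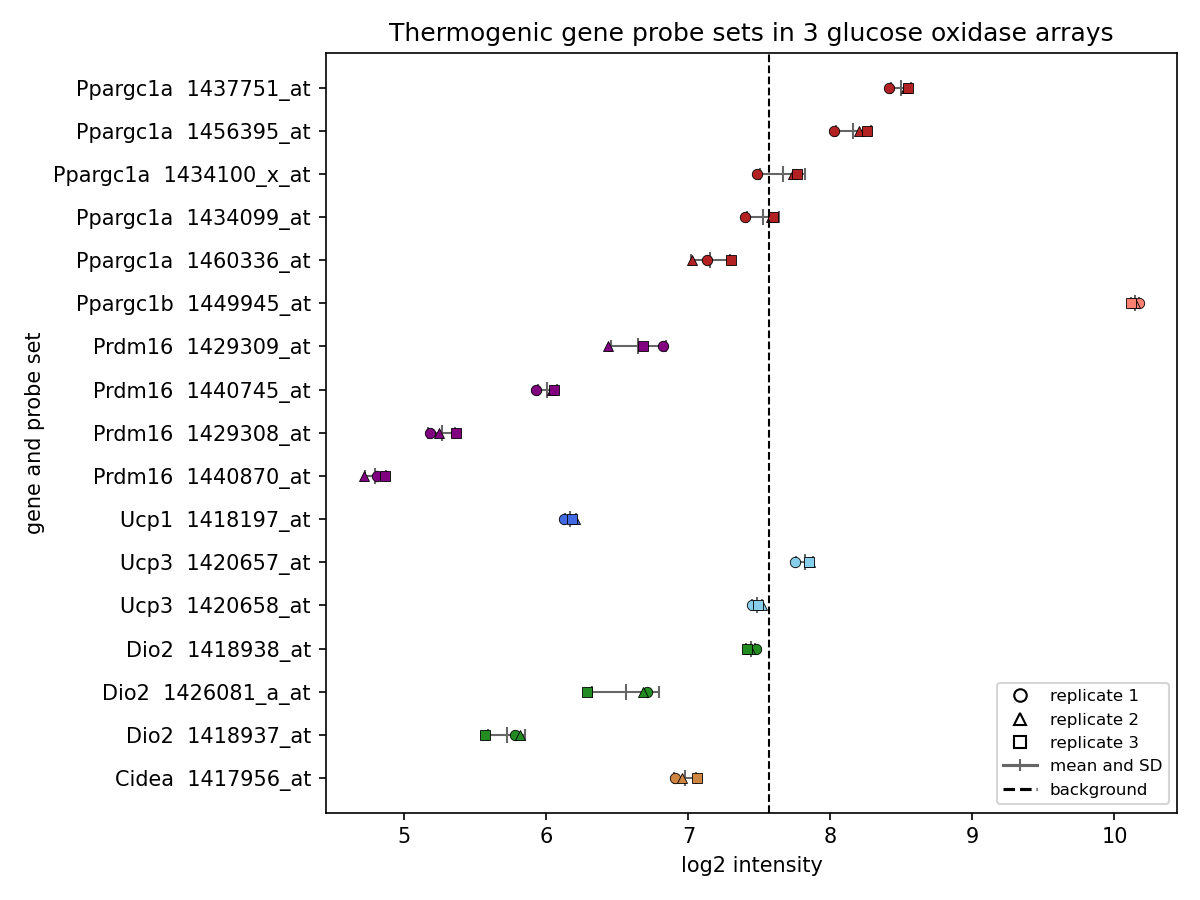
Log2 intensity (x axis) of the 17 probe sets of 7 thermogenic genes (rows) in each of the 3 glucose oxidase arrays, with the mean and SD as a bar behind the points and the background of 7.57 as a dashed line. Ppargc1b and the upper probe sets of Ppargc1a and Ucp3 lie right of the line in all arrays, and every probe set of Ucp1, Cidea, Dio2 and Prdm16 lies left of it.

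Ppargc1b, the gene of PGC-1β, was above background in every array. Its 1 probe set, 1449945_at, gave log2 intensities of 10.17, 10.14 and 10.12 in replicates 1 to 3, or intensities of 1153, 1130.15 and 1113. The mean was 10.14 ± 0.026 (SD, n = 3), which is 5.96 times the background intensity and above all 86 receptor probe sets. The 3 values lay within 0.052 of each other on the log2 scale.

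Ppargc1a, the gene of PGC-1α, was read by 5 probe sets that did not agree on detection. Probe set 1437751_at gave log2 intensities of 8.42, 8.53 and 8.54 in replicates 1 to 3, with a mean of 8.50 ± 0.070 (SD, n = 3), 1.90 times the background intensity. Probe set 1456395_at gave 8.03, 8.20 and 8.26, with a mean of 8.16 ± 0.12. Both were above background in every array. Probe sets 1434100_x_at and 1434099_at were designed on one source sequence, and each was above background in replicates 2 and 3 but not in replicate 1. The first gave 7.48, 7.74 and 7.77 in replicates 1 to 3, and the second 7.40, 7.58 and 7.60. Probe set 1460336_at was above background in no array, with 7.13, 7.03 and 7.30.

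The 5 probe sets of Ppargc1a also shared an order of arrays. Replicate 3 was highest in 5 of 5 and replicate 1 lowest in 4 of 5, and replicate 3 exceeded replicate 1 by 0.13 to 0.28 on the log2 scale. Probe sets of 1 gene read the same RNA and are not replicates. Over all genes above background, 5866 of 9918 were also higher in replicate 3 than in replicate 1 (59.1%), with a median difference of 0.02. Over all probe sets above background, 47.3% were lowest in replicate 1. Whether this order between arrays has a part in the order seen for Ppargc1a was not tested.

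Ucp3, an uncoupling protein of skeletal muscle and brown fat whose role is less settled than that of UCP1, lay at the edge of detection. Probe set 1420657_at gave log2 intensities of 7.75, 7.86 and 7.85 in replicates 1 to 3, with a mean of 7.82 ± 0.059 (SD, n = 3). That is 1.19 times the background intensity, and 83 of the 86 receptor probe sets were lower. Probe set 1420658_at, designed on the same source sequence, gave 7.45, 7.52 and 7.49 and was above background in no array. The 2 probe sets thus fell on opposite sides of the background. With the 99th percentile of the receptors as background, 8.03, Ucp3 was not above it. Of 10 skeletal muscle markers, 2 were above background in the same arrays, Ckm at 8.25 ± 0.040 and Atp2a1 at 7.63 ± 0.050. Those not above it ran from Mb at 7.30 ± 0.10 down to Myf5, a factor of muscle precursors, at 3.24 ± 0.072. The part of muscle-type transcripts in the Ucp3 signal was not tested.

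Ucp1, the heat-producing uncoupling protein of brown fat, was not above background. Its 1 probe set, 1418197_at, gave log2 intensities of 6.13, 6.20 and 6.18 in replicates 1 to 3, with a mean of 6.17 ± 0.038 (SD, n = 3). Of the 86 receptor probe sets 52 were lower, so the Ucp1 signal lay in the middle of the receptor probe sets. Its level was 0.378 times the background intensity. The small spread between arrays is therefore that of a signal under the limit, where low transcript was not distinguishable from none.

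Prdm16, the regulator of brown fat fate, was read by 4 probe sets, and none was above background in any array. Probe set 1429309_at gave log2 intensities of 6.82, 6.44 and 6.68 in replicates 1 to 3, with a mean of 6.64 ± 0.19 (SD, n = 3). The other 3 had means of 6.01 ± 0.070 (1440745_at), 5.26 ± 0.095 (1429308_at) and 4.79 ± 0.073 (1440870_at). Between 29 and 63 of the 86 receptor probe sets were lower than these.

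Cidea, a lipid droplet protein characteristic of brown fat, gave log2 intensities of 6.91, 6.96 and 7.06 in replicates 1 to 3 on probe set 1417956_at. The mean was 6.97 ± 0.077 (SD, n = 3), and 70 of the 86 receptor probe sets were lower. It was above background in no array.

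Dio2, the deiodinase that turns thyroxine into active thyroid hormone, was close to the background on 1 of its 3 probe sets. Probe set 1418938_at gave log2 intensities of 7.47, 7.43 and 7.41 in replicates 1 to 3, with a mean of 7.44 ± 0.032 (SD, n = 3), 0.914 times the background intensity. With the 90th percentile of the receptors as background, 7.38, Dio2 was above it in all 3 arrays. Probe set 1426081_a_at gave 6.71, 6.68 and 6.29, and 1418937_at, designed on the same source sequence as 1418938_at, gave 5.78, 5.81 and 5.57. Replicate 3 was lowest in all 3 probe sets of Dio2. None of these was above background in any array, so this is an order of signals under the background. No contrast with the order of arrays in Ppargc1a can be drawn from it.

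**Figure D2:**
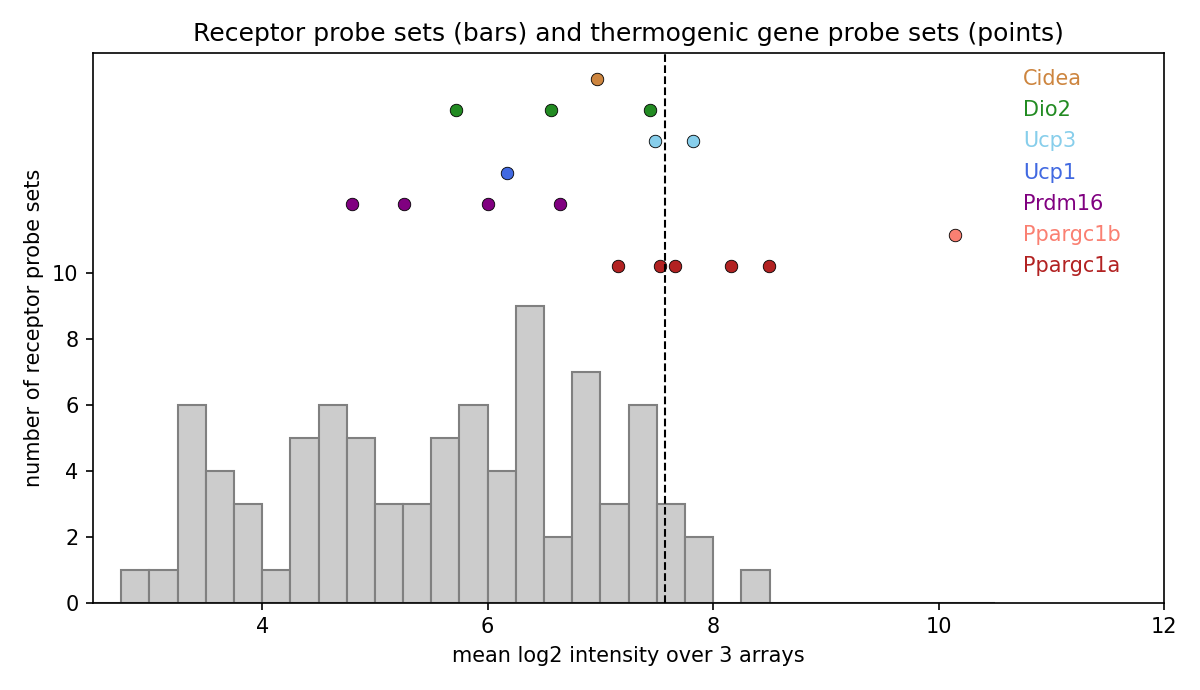
Number of receptor probe sets (bars, 86 in all) by mean log2 intensity over the 3 arrays (x axis), with the means of the 17 thermogenic gene probe sets as points in a row for each gene and the background of 7.57 dashed. Ucp1, Prdm16 and Cidea lie among the receptor probe sets, while Ppargc1b and 1 probe set of Ppargc1a lie right of all of them.

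The spread between arrays was set against that of all probe sets. The median SD of the 3 thermogenic genes above background was 0.059 on the log2 scale, beside 0.048 for all genes above background. Over the 17 probe sets the median SD was 0.077. Over all probe sets of 1 gene it was 0.051 for those above background in all arrays and 0.080 for the others. Of the 17, 10 exceeded the median SD of all probe sets whose level lay within 0.5 of their own, among them all 5 of Ppargc1a. Probe sets in general exceed such a median about as often as not, so 10 of 17 is no clear excess. The highest SDs were 0.24 for 1426081_a_at of Dio2, 0.19 for 1429309_at of Prdm16 and 0.16 for 1434100_x_at of Ppargc1a. In each of these 1 array lay farther from the other 2 than they did from each other, which was replicate 3 for Dio2, replicate 2 for Prdm16 and replicate 1 for Ppargc1a. Of the 5 Ppargc1a probe sets, the 4 other than 1437751_at had an SD of 0.11 or more, where the median over all probe sets was 0.069 at levels of 7 to 8 and 0.060 at levels of 8 to 9. At 1437751_at the SD was 0.0091 without replicate 1.

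**Figure D3:**
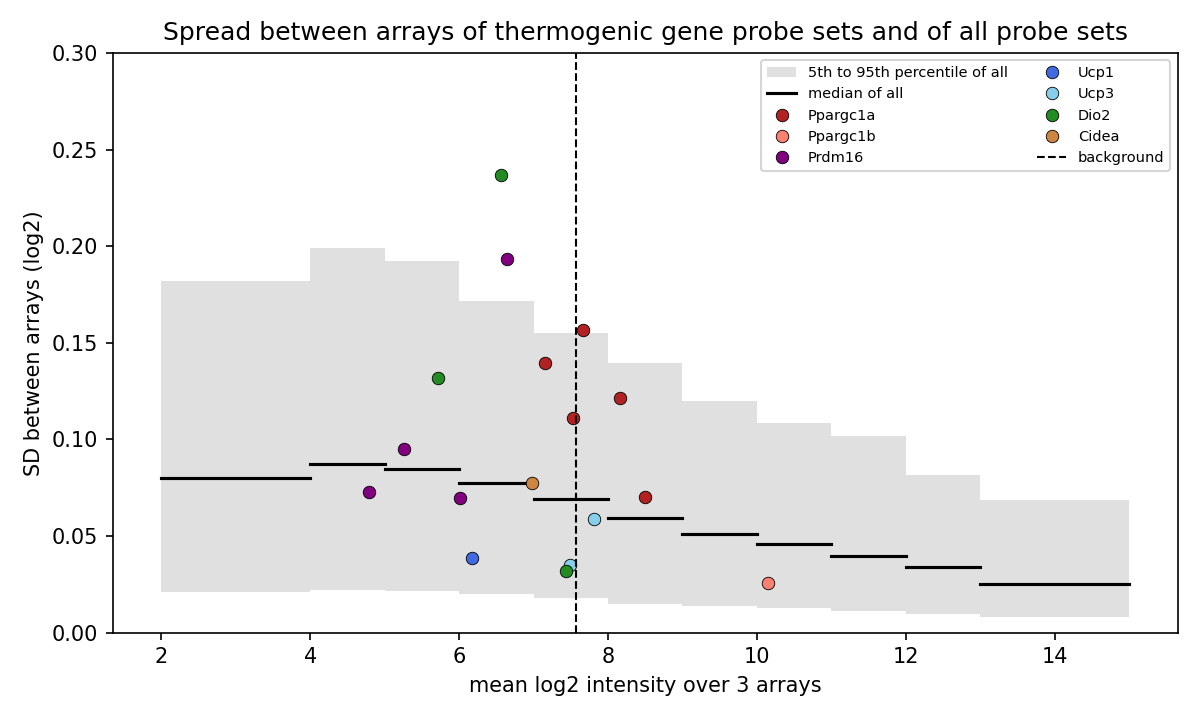
SD between the 3 arrays (y axis, log2) against mean log2 intensity (x axis) for the 17 thermogenic gene probe sets (points), with the median (black steps) and the 5th to 95th percentile (grey) of all probe sets of 1 gene at that level. Ppargc1a probe sets lie above the median at every level, and 1 probe set each of Dio2, Prdm16 and Ppargc1a lies above the 95th percentile.

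The genes around the members were counted by role in lists, each gene by the same background. In the list of brown and beige fat markers, which holds Ucp1, Cidea, Dio2, Prdm16 and Ppargc1a, 10 of 33 measured genes were above background, beside 54.5% of all genes. The count was 5 of 33 when the median over probe sets stood for each gene, a rule under which the share of all genes was 43.9%. Those above background outside the members included Mtus1 at 10.16 ± 0.15, Kcnk3, a potassium channel, at 9.59 ± 0.086, Letmd1, a mitochondrial protein, at 9.23 ± 0.051 and Cox8b, a cytochrome oxidase subunit of muscle and brown fat, at 9.00 ± 0.068. For Letmd1 the median over its 5 probe sets was 4.63 and for Kcnk3 over 3 it was 7.35, both under the background. Cox7a1, another such subunit, was at 6.86 ± 0.094 and Bmp8b, a secreted factor of brown fat, at 6.53 ± 0.068, neither above background. Of the cell type markers planned for brown and beige fat, only Ppargc1a and Cox8b were above background. Mtus1, Kcnk3, Letmd1 and the others above background were in this list but not among those planned. Planned markers not above background also included Elovl3 at 6.15 ± 0.049, Otop1 at 3.79 ± 0.044 and Zic1 at 3.45 ± 0.098. Lhx8 at 4.55 ± 0.046, Tmem26 at 5.53 ± 0.15, Tnfrsf9 at 7.27 ± 0.082 and Tbx1 at 5.07 ± 0.064 were not above it either.

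The PGC-1 coactivators were set beside their partners and targets. In the list of the PGC-1 family and its partner factors, 21 of 26 were above background, and in the list of mitochondrial targets 21 of 21, beside 54.5% of all genes. When the median over probe sets stood for each gene, the counts were 18 of 26 and 21 of 21, beside 43.9% of all genes. These counts describe detection, and the activity of PGC-1 was not tested. Pparg, the master regulator of fat cell formation, was at 12.74 ± 0.067, Rxra, its partner receptor, at 10.96 ± 0.044, and Yy1, which binds PGC-1α, at 11.53 ± 0.036. The partners not above background were Ppara at 6.21 ± 0.0099, Esrrb at 7.53 ± 0.043, Esrrg at 6.84 ± 0.090, Mef2c at 6.75 ± 0.021 and Prkaa2 at 7.25 ± 0.020. Ppara is the fatty acid receptor of liver and brown fat, and Esrrb and Esrrg are oestrogen-related receptors. Of the targets, Atp5b, an ATP synthase subunit, was at 13.93 ± 0.026, Cycs, cytochrome c, at 13.66 ± 0.023 and Cox4i1, a cytochrome oxidase subunit, at 13.67 ± 0.037.

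Among mitochondrial carriers related to the uncoupling proteins, 12 of 15 were above background, Ucp3 among them and Ucp1 not, beside 54.5% of all genes. Slc25a5, which exchanges ADP for ATP, was at 13.65 ± 0.0051 and Slc25a3, which carries phosphate, at 13.12 ± 0.028. Slc25a27, a brain uncoupling protein also called UCP4, was not above background at 6.83 ± 0.098, nor was Slc25a31, a testis form of the ADP/ATP carrier, at 3.49 ± 0.14.

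Most genes of the signalling route to Ucp1 were detected, and the β-adrenergic receptor genes were not analysed here. Of 20 genes of the adrenergic and cyclic AMP list, 19 were above background, beside 54.5% of all genes. Map2k6, a kinase upstream of p38, was not, at 7.53 ± 0.072. Gnas, the stimulatory G protein subunit, was at 13.56 ± 0.010 and Prkaca, the catalytic subunit of protein kinase A, at 12.48 ± 0.043. The count was 12 of 20 when the median over probe sets stood for each gene, beside 43.9% of all genes, and for Gnas that median was 6.21.

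Regulators of the brown fat programme were detected on both sides. Of the PRDM16 partners and positive regulators 16 of 19 were above background, including Cebpb, a partner of PRDM16 in brown fat, at 12.52 ± 0.050 and Plac8 at 11.95 ± 0.078. Besides Prdm16, Ebf2, which marks brown fat precursors, was not above background at 7.32 ± 0.062, nor was Irf4, which acts with PGC-1α on fasting and cold, at 6.83 ± 0.10. Of the negative regulators 13 of 16 were above background, with Nrip1, the corepressor RIP140, at 10.89 ± 0.084, Rb1, the retinoblastoma protein, at 10.30 ± 0.053 and Twist1, which binds PGC-1α and restrains it, at 10.05 ± 0.029. Trpv4 at 7.28 ± 0.060, Gdf3 at 7.55 ± 0.037 and Acvr1c at 6.88 ± 0.10, also negative regulators, were not above background. The share of all genes was 54.5%. When the median over probe sets stood for each gene, the counts were 12 of 19 positive and 9 of 16 negative regulators, beside 43.9% of all genes.

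Companions of Cidea and Dio2 were also set against the background. Of the CIDE and lipid droplet genes, 6 of 8 were above background, beside 54.5% of all genes. Cidec, the relative of Cidea that white fat cells use to build large droplets, was at 13.59 ± 0.0063, and Pnpla2, the first lipase of triglyceride breakdown, at 13.26 ± 0.027. Plin5, a droplet protein of oxidative tissues, was not above background at 6.26 ± 0.10. In the thyroid hormone list 8 of 12 were above background, with the receptor Thra at 11.36 ± 0.021 and Thrsp, a thyroid hormone responsive gene of lipid synthesis, at 13.15 ± 0.041. The receptor Thrb at 6.37 ± 0.11 and the other deiodinase measured, Dio1, at 4.99 ± 0.041 were not above background.

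**Figure D4:**
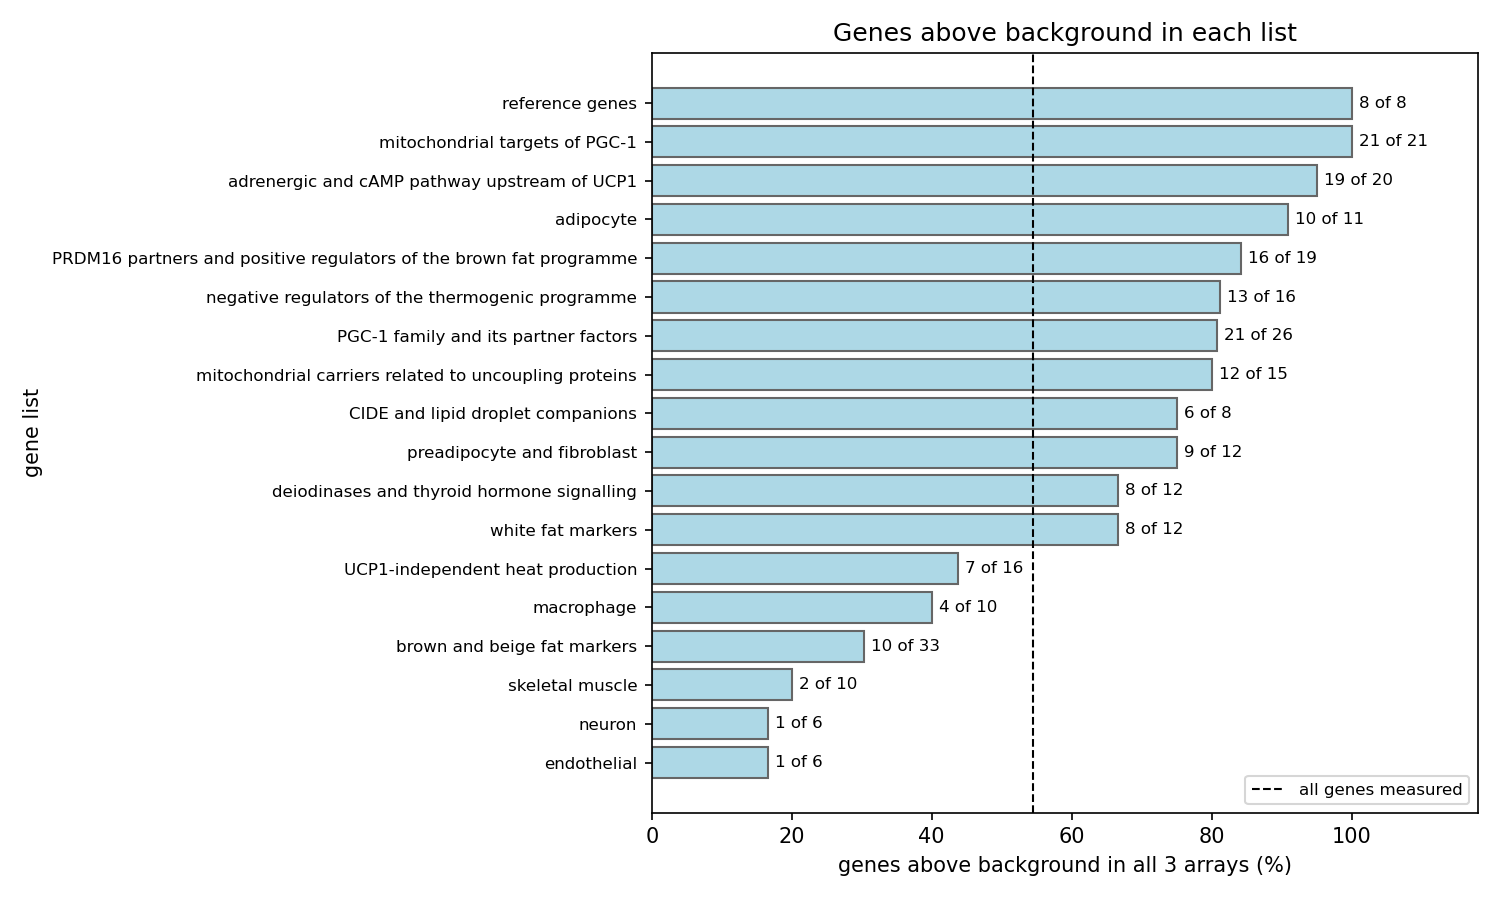
Percent of measured genes above background in all 3 arrays (x axis) in each of 18 gene lists (rows, with counts), and the 54.5% of all genes measured as a dashed line. The brown and beige fat list lies left of the line at 10 of 33 genes, while the lists of PGC-1 partners, mitochondrial targets and the cyclic AMP pathway lie right of it.

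Genes with more probe sets were more often above background, and any probe set could bring a gene above it. Of all genes with 1 probe set 39.3% were above background, as was 1 of the 3 thermogenic genes with 1 probe set, Ppargc1b, and not Ucp1 or Cidea. Of genes with 2 probe sets 62.2% were above background, as was Ucp3. Of genes with 5 probe sets 85.2% were above background, as was Ppargc1a. Of genes with 4 probe sets 80.5% and with 3 probe sets 74.2% were above background, and Prdm16 and Dio2, which have 4 and 3, were not. In whole cultures, fewer cells with a transcript and less of it per cell cannot be told apart.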

How the data were processed

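Glucose oxidase-treated 3T3-L1 adipocytes were profiled on 3 arrays. The authors deposited probe set intensities, which they had background-corrected and normalised with RMA in affyPLM (version not given in the sources used here). As RMA commonly returns log2 values and these were linear, they were log2-transformed, and any scaling after RMA is unknown.

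Of 45101 probe sets, 34958 had 1 gene in the platform annotation, 932 several and 9211 none. Symbols were checked through Entrez identifiers against RefSeq (34754 matched, 0 changed). Promoters came from RefSeq, assembly GRCm38.p6.

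Values were described as mean and SD over 3 arrays, and no test was possible with 1 group. All members were named. In each list, the rule allowed the 4 highest genes above background and the genes not above it (up to 6, otherwise 4 in alphabetical order). Further genes of the brown and beige fat, heat production and white fat lists were named to show both sides. Members and the 18 lists, of 260 genes (242 measured), were chosen with earlier results of these data known.

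Alternatives were other background percentiles (90, 99) or genes, a median over probe sets in place of the highest, omission of suffixed probe sets, centring arrays on their median, a linear coefficient of variation, all members, and leaving out each array. Suffixed probe sets are those ending in _x_at, _s_at or _a_at, which may detect more than 1 transcript, of the same gene or of others. The software was matplotlib 3.10.9, scipy 1.17.1, numpy 2.4.6, pandas 2.3.3 and Python 3.11.15.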

Additional observations from a re-analysis of the deposited data

How the results depend on the processing

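The number of thermogenic genes above background was 3, and 3 also with any array left out, with arrays centred and on removal of suffixed probe sets. It was 2 with the 99th percentile or with a background from defensin and keratin-associated genes (7.91), where Ucp3 was lost, 2 with the median over probe sets, where Ppargc1a was lost, and 4 with the 90th percentile, where Dio2 was added. The share of all genes above background, 54.5% as reported, was 48.0% with the 99th percentile, 49.7% with the defensin and keratin-associated genes, 43.9% with the median over probe sets and 57.5% with the 90th percentile. Ppargc1b was above background under each of these settings, and Ucp1, Prdm16 and Cidea under none. With the median of the probe sets, the level was 7.65 for Ucp3, 7.66 for Ppargc1a, 5.63 for Prdm16 and 6.56 for Dio2, and the SD 0.157 for Ppargc1a, 0.0785 for Prdm16 and 0.237 for Dio2. The median SD of the thermogenic genes above background was then 0.0361. With arrays left out in turn this median SD spanned 0.00905 to 0.0747, and the SD spanned 0.0170 to 0.0532 for Ucp1, 0.00553 to 0.0747 for Ucp3, 0.00905 to 0.0899 for Ppargc1a, 0.0159 to 0.0364 for Ppargc1b, 0.0960 to 0.270 for Prdm16, 0.0348 to 0.107 for Cidea and 0.0127 to 0.0439 for Dio2, lowest without replicate 1 except for Prdm16 (replicate 2) and Cidea (replicate 3). With the median of the probe sets, genes above background numbered 5 for brown and beige fat markers, 12 for the adrenergic and cyclic AMP list and 0 for neuronal markers. Skeletal muscle markers above background numbered 1, and neuronal markers 0, with the 99th percentile and with the defensin and keratin-associated genes. Neuronal markers spanned 0 to 1 with arrays left out in turn, with 0 without replicate 3, and reference genes numbered 5 without suffixed probe sets, since fewer probe sets remained. The cause of the other shifts was not tested. Of 162 list counts under alternatives, 153 stayed within 1.5 times the reported count. No paired analysis was possible because there is only 1 group. Precision is limited by the 3 arrays, and values below background are bounds.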

Other observations

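Fat cells can also make heat without UCP1, by cycling creatine, calcium or glycerol phosphate. Of 16 genes listed for heat production without UCP1, 7 were above background, beside 54.5% of all genes measured. This list also holds 2 genes of none of these cycles. They are Kcnk3, above background at 9.59 ± 0.086 and also in the brown and beige fat list, and Pm20d1, not above it at 5.76 ± 0.10. Gpd1 and Gpd2, the enzymes of the glycerol phosphate shuttle, were at 13.62 ± 0.028 and 11.11 ± 0.063 (log2 intensity, mean ± SD, n = 3), and Atp2a2, the calcium pump SERCA2, at 11.91 ± 0.020. Of the other calcium genes, Atp2a1 was above background at 7.63 ± 0.050. Ryr1 at 5.61 ± 0.017, Ryr2 at 6.18 ± 0.054 and Sln at 6.27 ± 0.092 were not. The creatine kinases Ckb at 6.92 ± 0.064, Ckmt1 at 6.31 ± 0.15 and Ckmt2 at 4.40 ± 0.033 were not above background, nor was Alpl, a phosphatase of the creatine cycle, at 7.39 ± 0.053. Of the other creatine genes, Gatm was not above it at 4.45 ± 0.062, while Gamt at 9.35 ± 0.068 and Slc6a8 at 9.08 ± 0.012 were.

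White fat markers were above background for 8 of 12 genes, beside 54.5% of all genes measured. Psat1, Nnmt, Mest and Nrip1, all above background, were in this list but not among the cell type markers planned for white fat. As many of the planned markers were above background as not. Retn, Agt, Wfdc21 and Hoxc9 were above it, and Lep, Tcf21, Hoxc8 and Slc7a10 were not. Nrip1 was also in the list of negative regulators. Retn, the hormone resistin, was at 13.67 ± 0.035, Agt, angiotensinogen, at 12.19 ± 0.074 and Psat1, an enzyme of serine synthesis, at 12.13 ± 0.057. Tcf21, a factor of white fat precursors, at 6.54 ± 0.043, Hoxc8 at 3.37 ± 0.055, Slc7a10, an amino acid carrier, at 6.60 ± 0.16 and Lep at 5.79 ± 0.045 were not above background.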
